A study of Mus musculus with 16 samples.

Results

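C1q macrophages low in major histocompatibility complex (MHC) class II were described in single-cell transcriptomes of mouse mammary tumors. The cells were chosen on their unique molecular identifier (UMI) counts, where 1 UMI stands for 1 captured transcript. A barcode was kept with 450 to 4000 genes and under 20% mitochondrial UMIs. It counted as a C1q macrophage with at least 4 UMIs over Tyrobp, Fcer1g, Ctss, Lyz2, Cd68 and Csf1r, at least 2 UMIs over C1qa, C1qb and C1qc, and fewer than 10 UMIs over Col1a2 and Col3a1. It was called MHC class II-low when Cd74, H2-Aa, H2-Ab1 and H2-Eb1 together made up fewer than 5 of every 1000 of its UMIs. Of 4798 cells that passed the filters, 439 were MHC class II-low and 276 were MHC class II-high C1q macrophages, 369 were other myeloid cells with fewer than 2 C1q UMIs, and 3714 were not myeloid by these counts.

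The tumors were end-stage mammary tumors of untreated WB1P mice (genotype WapCre;Brca1F/F;Trp53F/F) and WB1P-Myc mice (WapCre;Brca1F/F;Trp53F/F;Myc), the age of which was not given in the sources used here. Both models carry WapCre, which drives deletion of the floxed Brca1 and Trp53 alleles in mammary epithelium, and in WB1P-Myc mice Cre also switches on a construct in Col1a1 that encodes Myc and luciferase, so the macrophages are host cells around the genetically altered epithelium. Live single cells were sorted from enzymatically digested tumors and measured by Drop-seq, in which each droplet pairs a cell with a bead whose barcode tags its transcripts at their 3′ ends. Each model gave 1 suspension, from which 4 droplet fractions were sequenced, so each model is 1 sample, the fractions are technical parts of it, and neither a test between models nor a separation of model from droplet session was possible. The study names more than 1 mouse per model, without saying which fraction holds cells of which.

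C1q proteins start the classical complement cascade, and tissue macrophages are their main source. MHC class II molecules present peptides to CD4+ T cells, Cd74 is their invariant chain, and the H2-DM proteins load the peptides. Tumor macrophages are known to range from MHC class II-low to MHC class II-high states.

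MHC class II genes are transcribed through a shared promoter module that includes an X box and a Y box, the latter holding the letters ATTGG. The 150 bases before the transcription start were read from RefSeq (GRCm38.p6) for the genes that set the class (H2-Aa, H2-Eb1) and for the H2-DM genes, which the choice of cells did not use. The sequences are shown because the H2-DM genes were lower in cells chosen for low counts of the class II genes. The H2-Aa window is chr17:34287824-34287973, minus strand. The H2-Eb1 window is chr17:34305717-34305866, plus strand. The H2-DMb1 window is chr17:34153041-34153190, plus strand. The H2-DMb2 window is chr17:34145099-34145248, plus strand. The H2-DMa window is chr17:34122682-34122831, plus strand. Capitals mark ATTGG on either strand. They also mark GCAAC, a part of the X box of H2-Aa, on either strand.
H2-Aa: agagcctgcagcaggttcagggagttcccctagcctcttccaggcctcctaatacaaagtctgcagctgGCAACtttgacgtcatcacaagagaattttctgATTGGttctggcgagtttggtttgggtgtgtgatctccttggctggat
H2-Eb1: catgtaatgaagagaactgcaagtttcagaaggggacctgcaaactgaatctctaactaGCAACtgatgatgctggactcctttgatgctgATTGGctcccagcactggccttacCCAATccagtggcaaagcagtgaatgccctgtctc
H2-DMb1: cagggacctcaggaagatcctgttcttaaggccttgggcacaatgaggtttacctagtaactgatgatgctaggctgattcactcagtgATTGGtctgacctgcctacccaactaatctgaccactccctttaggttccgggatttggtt
H2-DMb2: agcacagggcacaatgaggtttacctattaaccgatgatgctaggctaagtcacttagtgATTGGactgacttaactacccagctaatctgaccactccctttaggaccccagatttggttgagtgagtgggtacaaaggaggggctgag
H2-DMa: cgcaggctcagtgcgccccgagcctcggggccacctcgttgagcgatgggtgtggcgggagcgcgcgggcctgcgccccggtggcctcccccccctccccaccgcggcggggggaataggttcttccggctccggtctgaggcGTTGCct
ATTGG on either strand was in 6 of the 7 MHC class II windows that matched of 9 genes looked up, and in 25.3% of 27025 promoter windows of the same length. GCAAC on either strand was in 5 of the 7 and in 19.8% of all windows, and both were in 5.15% of all windows. The 5 include H2-Aa, from which the letters were taken, and H2-DMa, which held only GTTGC, 7 bases before the start. In H2-Aa, H2-Eb1, H2-Oa and H2-Ob the first letters of GCAAC and ATTGG were 33, 32, 33 and 30 bases apart. H2-DMb1 and H2-DMb2 held ATTGG 61 and 90 bases before the start without the exact letters GCAAC, and H2-DMa held no ATTGG. Absence of the exact letters does not mean that an X box or a Y box is absent. A match is a description of the letters and not evidence of a bound factor.

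The members numbered 124 in WB1P (2, 31, 43 and 48 in fractions 1 to 4) and 315 in WB1P-Myc (77, 93, 61 and 84). WB1P fraction 1 stood apart with 65 cells in all, so levels are given by fraction only for fractions with at least 20 members, and pooled levels include it. The 8 libraries held 256985 to 4960334 UMIs. Members had a median of 1525.5 UMIs and 827 genes in WB1P and of 1790 UMIs and 981 genes in WB1P-Myc. Their pooled depth was 229472 UMIs in WB1P and 733945 UMIs in WB1P-Myc. Levels are CPM, the pooled UMIs of a gene per 1000000 UMIs of the class, and 0 UMIs allow a level of up to 13.1 CPM in WB1P and 4.09 CPM in WB1P-Myc, the level of 3 UMIs. Only 1 member barcode occurred in a second HiSeq library. All intervals below are 95% intervals that cover counting error only.

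The share of C1q macrophages that were MHC class II-low was 43.4% in WB1P (124 of 286; exact Clopper-Pearson interval 37.5 to 49.3%) and 73.4% in WB1P-Myc (315 of 429; 69.0 to 77.5%). It was 39.7%, 42.2% and 46.6% in WB1P fractions 2, 3 and 4, and 2 of 3 cells were low in fraction 1. It was 70.6%, 76.9%, 69.3% and 75.7% in the WB1P-Myc fractions, so the large fractions of the models did not overlap. The mean over these fractions was 42.8% ± 3.48 (SD, n = 3) in WB1P and 73.1% ± 3.70 (SD, n = 4) in WB1P-Myc, where the SD is technical. As a share of all cells the members were 9.49% in WB1P and 9.02% in WB1P-Myc, whereas MHC class II-high macrophages numbered 162 of 1307 cells and 114 of 3491 cells. In the MiSeq run, which has the same sample numbers but shares few cell barcodes, the low share was 44.6% (33.0 to 56.6%) and 70.2% (56.6 to 81.6%).

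Many members held no MHC class II UMI at all. No UMI of the 4 genes was seen in 53 of 124 WB1P members (42.7%) and in 169 of 315 WB1P-Myc members (53.7%), against a median of 28.0 and 16.9 per 1000 UMIs in MHC class II-high macrophages (median depth 1686.5 and 1611.5 UMIs). There was no gap at the limit, with 13 cells at 4 to 5 and 14 cells at 5 to 6 per 1000. The highest member stood at 4.90 and the lowest cell outside at 5.07 per 1000. At the other limits, 37 members had exactly 2 C1q UMIs, 46 further cells missed only by having 1 C1q UMI, and 25 barcodes met every condition except that they held over 4000 genes.

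**Figure D1:**
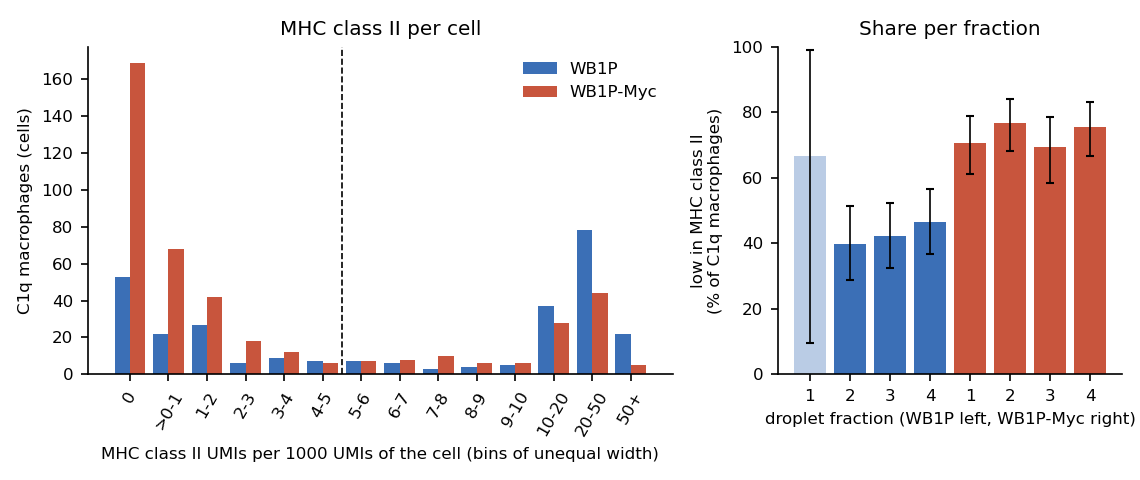
Left, numbers of C1q macrophages by MHC class II UMIs per 1000 UMIs of the cell, with bins of unequal width and a dashed line at the limit of 5. Right, percent of C1q macrophages that were MHC class II-low in each droplet fraction with exact 95% intervals (paler bar, 3 cells); WB1P fractions 2 to 4 lie between 39.7% and 46.6% and WB1P-Myc fractions between 69.3% and 76.9%.

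The marker genes C1qa and Csf1r helped to choose the cells, so their levels describe the choice and do not check the label. A C1qa UMI was present in 84.7% of WB1P and 78.4% of WB1P-Myc members and in 2.69% and 2.05% of non-myeloid cells, which were deeper (median 1862 and 2716 UMIs). Csf1r, the receptor for the macrophage growth factor CSF1, was present in 45.2% and 41.0% of members and in 1.29% and 0.791% of non-myeloid cells. Of macrophage genes not used in the choice, Mrc1, the mannose receptor CD206, was seen in 53.2% and 48.6% of members and in 0.859% and 1.47% of non-myeloid cells, and the Fc receptor Fcgr3 stood at 898 and 549 CPM in members and 9.70 and 2.50 CPM in non-myeloid cells. C1qa varied between fractions, at 775 CPM in WB1P fraction 2 against 2037 and 2646 CPM in fractions 3 and 4 and between 689 and 1613 CPM in WB1P-Myc. C1qb did not vary in that way, at 2326 to 2674 CPM in the WB1P fractions. Cd74 in the MHC class II-high macrophages showed the same pattern, at 3276 CPM in WB1P fraction 2 against 10049 and 15389 CPM, whereas H2-Aa stood at 10598 to 11055 CPM in all of them. With Cd74 left out of the sum, 474 cells were low, all 439 members among them, and the low shares were 49.0% and 77.9%.

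Markers of other lineages were found in some members. Over the lists for epithelial, Schwann and glial, endothelial, T and NK, and B cells, at least 3 UMIs were seen in 16 of 124 members in WB1P and 52 of 315 in WB1P-Myc, compared with 5.56% and 16.7% of MHC class II-high cells. The summed epithelial list (14 genes) stood at 189, 412 and 2108 CPM in WB1P fractions 2, 3 and 4 of members and at 116 to 751 CPM in the WB1P-Myc fractions. Pooled, it stood at 1089 CPM in members against 327 CPM in MHC class II-high cells in WB1P (log2 ratio 1.73, 1.40 to 2.07) and at 365 against 237 CPM in WB1P-Myc (0.62, 0.18 to 1.09). The Schwann and glial list (12 genes) stood at 148 CPM in WB1P and 738 CPM in WB1P-Myc members, with 6 and 1 of its genes at 0, and at 70.4 and 731 CPM in MHC class II-high cells. T and NK cell genes were nearly absent, with 1 UMI in WB1P and 6 UMIs in WB1P-Myc members and 12 and 7 of 13 genes at 0. At least 1 UMI of the fibroblast list was seen in 37.9% and 41.6% of members and in 30.9% and 34.2% of MHC class II-high cells. That list was not used to leave out cells, and the part of fibroblast RNA in the results below was not tested. The part of tumor cell RNA or doublets was not tested beyond leaving out the 68 members with at least 3 UMIs of the other lists.

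Compared with MHC class II-high macrophages of the same suspensions, members had higher levels of F13a1, Ccl8, Ccl2 and Ctsd and lower levels of the peptide-loading H2-DM genes, Il1b and Ccr2. The contrast describes cells that were separated on MHC class II counts, so it has no test. A gene counted as different when its pooled level differed at least 2-fold in the same direction in both models, with at least 30 UMIs over both classes in each model. Of 2831 genes with enough UMIs, 20 were higher (0.706%) and 24 were lower (0.848%) in members, and the median log2 ratio over all of them was 0.05 in WB1P and 0.04 in WB1P-Myc. The 15 genes used to choose cells and the mitochondrial genes were left out. Without the cells that carried 3 UMIs of other lineages, 13 genes were higher and 14 lower, and with WB1P fraction 4 left out 9 were higher and 16 lower. DESeq2 size factors (shift of every WB1P log2 ratio -0.13) gave 15 higher and 33 lower genes, TMM factors 18 and 30, and means over cells 28 and 21.

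F13a1, which encodes the coagulation factor XIII A subunit and is abundant in resident macrophages, led the higher genes. It stood at 435, 412 and 759 CPM in members of WB1P fractions 2 to 4 and at 34.1, 17.2 and 123 CPM in MHC class II-high cells. In WB1P-Myc it stood at 308, 273, 575 and 321 CPM in members and at 110, 86.9, 160 and 21.0 CPM in MHC class II-high cells. Members were higher in all 7 fractions, and the groups did not overlap in either model. The WB1P log2 ratio was 3.19 (interval 2.50 to 3.95) and the WB1P-Myc log2 ratio 1.86 (1.22 to 2.58), and the gene stayed in the call without any single fraction. A F13a1 UMI was seen in 33.1% and 25.4% of members and in 1.18% and 0.826% of the deeper non-myeloid cells. Among myeloid cells low in C1q it was seen in 6.67% in WB1P and 24.4% in WB1P-Myc, and with each cell thinned to 600 UMIs the WB1P-Myc shares were 14.6% of members and 14.3% of those cells. The log2 ratio of members over them was 3.89 in WB1P (2.87 to 5.13) and 0.29 in WB1P-Myc (0.01 to 0.58), so F13a1 was not called higher than in myeloid cells low in C1q.

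Ccl8, a chemokine for monocytes and T cells, followed the same order. Its level in members was 1134, 962 and 2097 CPM in WB1P and 745, 421, 305 and 1162 CPM in WB1P-Myc. In MHC class II-high cells it was 91.0, 250 and 287 CPM and 349, 43.5, 272 and 378 CPM. The groups were apart in WB1P, and in WB1P-Myc they overlapped across fractions although members were higher within each of the 4. The log2 ratio was 2.73 (2.36 to 3.12) and 1.26 (0.86 to 1.69). A Ccl8 UMI was seen in 26.6% and 19.4% of members and in 8.27% and 5.39% of the deeper non-myeloid cells. Ccl2, the ligand of the monocyte receptor Ccr2, stood at 414 against 107 CPM in WB1P and at 296 against 133 CPM in WB1P-Myc, with log2 ratios of 1.95 and 1.15. It left the call when WB1P-Myc fraction 3 was left out. The study reports both chemokines in inflammatory fibroblasts of another mammary tumor model, and the part of fibroblast RNA in these values was not tested.

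The resident-type list held 16 genes, 10 of which had enough UMIs, and F13a1 was the only one at least 2-fold higher in both models. The list's median log2 ratio was 1.73 in WB1P and 0.75 in WB1P-Myc. Its summed level was 5622 CPM in members and 1943 CPM in MHC class II-high cells in WB1P, and 5295 and 3499 CPM in WB1P-Myc. The summed log2 ratio was 1.53 in WB1P and 0.60 in WB1P-Myc, beside 1.73 and 0.62 for the epithelial list, and its direction was the same in both models when cells with 3 or more UMIs of other lineages were left out. The pooled member levels were close between models, and those of MHC class II-high cells were further apart. Mrc1 stood at 906 against 291 CPM in WB1P (log2 ratio 1.64, 1.28 to 2.01) and at 632 against 518 CPM in WB1P-Myc (0.29, -0.02 to 0.60). Maf, a transcription factor of mature macrophages, stood at 828 against 214 CPM (1.95) and at 650 against 532 CPM (0.29). For Mrc1 and Maf the 2-fold difference was thus seen in WB1P and not in WB1P-Myc.

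Of other genes of the list, Stab1, a scavenger receptor, stood at 379 against 94.9 CPM in WB1P and 253 against 133 CPM in WB1P-Myc. Pf4, a platelet-type chemokine that macrophages also make, stood at 784 against 334 CPM and 996 against 541 CPM. Folr2, the folate receptor beta, had 17 and 86 UMIs in members and 6 and 13 UMIs in MHC class II-high cells, and stood at 1.55 and 64.2 CPM in non-myeloid cells. Timd4 had 2 and 1 UMIs and Lyve1 had 1 and 17 UMIs in all members of WB1P and WB1P-Myc, and low counts at this depth do not show absence. The label resident-type names a gene list, and the origin of the cells was not tested.

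Among 16 lipid-associated genes with enough UMIs Ctsd was the 1 called higher (median log2 ratio of the list 0.07 in WB1P and 0.67 in WB1P-Myc), and among 9 genes of alternative activation and suppression it was Arg1 (0.25 and 0.19). Ctsd, the lysosomal protease cathepsin D, stood at 1891, 1925 and 2045 CPM in WB1P members and at 853, 621 and 819 CPM in MHC class II-high cells, a log2 ratio of 1.38 (1.15 to 1.61). In WB1P-Myc it stood at 4746, 4598, 4496 and 4395 CPM in members and at 2478, 1760, 1377 and 1742 CPM in MHC class II-high cells, a log2 ratio of 1.32 (1.17 to 1.48). Members were above MHC class II-high cells in every fraction and without overlap in both models. Arg1, arginase 1, stood at 702 against 321 CPM and 183 against 71.2 CPM (log2 ratios 1.13 and 1.36), and missed the 2-fold limit in WB1P with TMM factors or DESeq2 size factors. Mki67, a marker of dividing cells, stood at 122 against 42.8 CPM and 229 against 42.7 CPM (1.51 and 2.42), with Top2a in the same call although only 1 of 3 WB1P fractions was higher in members. Mki67 left the call without WB1P fraction 2 or 4 and at 800 to 3000 UMIs. Fblim1, which encodes a cytoskeletal adaptor, stood at 118 against 18.4 CPM in WB1P and 106 against 28.5 CPM in WB1P-Myc, and left the call without WB1P fraction 2, 3 or 4, at 800 to 3000 UMIs and without cells carrying other lineage markers. Of the 12 named higher genes, 4 stayed in the call at 800 to 3000 UMIs and 5 without those cells.

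Of the genes for MHC class II processing that were not used to choose the cells, 5 of 8 had enough UMIs and the 3 H2-DM genes were lower in members. H2-DMb1 stood at 95.9 against 536 CPM in WB1P and at 35.4 against 318 CPM in WB1P-Myc, with log2 ratios of -2.48 (-3.19 to -1.84) and -3.17 (-3.88 to -2.49). H2-DMb2 stood at 78.4 against 551 CPM and 38.1 against 271 CPM (-2.81 and -2.83). H2-DMa stood at 161 against 578 CPM and 65.4 against 347 CPM (-1.84 and -2.41). All 3 genes were lower in members in each of the 7 fractions, and none left the call without any single fraction. H2-DMb1 and H2-DMb2 are close copies, so how reads were split between them is uncertain. Ciita, the master regulator of the class, had 0 UMIs in all members and 0 and 3 UMIs in MHC class II-high cells, so its level was not detectable at this depth.

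MHC class I genes, which present peptides to CD8+ T cells, differed less. Their sum was 8742 against 9921 CPM in WB1P (log2 ratio -0.18, -0.26 to -0.10) and 8979 against 12355 CPM in WB1P-Myc (-0.46, -0.53 to -0.39), and 0 of 7 genes with enough UMIs was at least 2-fold lower. In other lists no gene with enough UMIs was called in either direction, namely 0 of 16 for hypoxia and glycolysis, 0 of 6 for interferon-stimulated genes, 0 of 13 for scavenging and Fc receptors, 0 of 7 for iron and oxidative stress and 0 of 17 for immediate early and heat shock genes. Over all 2831 genes 0.706% were called higher and 0.848% lower, so a count of 0 is near that share. In WB1P and WB1P-Myc the summed log2 ratios were -0.17 and 0.48 for hypoxia and glycolysis and 0.04 and -0.50 for interferon-stimulated genes. They were 0.31 and -0.03 for scavenging and Fc receptors, -0.26 and 0.21 for iron and oxidative stress, and 0.18 and -0.08 for the last list.

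Il1b, the inflammatory cytokine interleukin 1 beta, was lower in members. It stood at 2571, 1137 and 938 CPM in WB1P members and at 4083, 3103 and 1998 CPM in MHC class II-high cells. In WB1P-Myc it stood at 387, 251, 241 and 427 CPM in members and at 1468, 1825, 2225 and 1238 CPM in MHC class II-high cells. The groups overlapped in WB1P, where fraction 2 was high in both, and did not overlap in WB1P-Myc. The log2 ratio was -1.09 (-1.28 to -0.90) and -2.42 (-2.67 to -2.18). In WB1P it missed the 2-fold limit without fraction 3 and without the cells carrying other lineage markers.

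Ccr2, which marks monocyte-derived cells, stood at 109 against 226 CPM in WB1P and at 169 against 608 CPM in WB1P-Myc (log2 ratios -1.06 and -1.85). It left the call without WB1P fraction 2 or 4 and with means over cells. Of the 15 monocyte genes, 6 had enough UMIs, Ccr2 and Ly6a were lower and none was higher, and the list's median log2 ratio was -0.13 and -0.77. Ly6a left the call without WB1P fraction 2, 3 or 4, without cells carrying other lineage markers, at 800 to 3000 UMIs and with means over cells. Plbd1, a phospholipase B-like gene of myeloid cells, stood at 34.9 against 196 CPM and 32.7 against 157 CPM, and Napsa, an aspartic protease, at 13.1 against 156 CPM and 31.3 against 133 CPM. Both were lower in each of the 7 fractions and stayed in the call without any single fraction.

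Some lower genes were carried by very few cells. Ccl17, a chemokine of dendritic cells, had 1 and 0 UMIs in members, but all 74 of its UMIs in MHC class II-high WB1P-Myc cells came from 1 cell and 34 of 64 in WB1P from another. It left the call without WB1P fraction 4 or WB1P-Myc fraction 3. Ccl5 had 52 UMIs in MHC class II-high WB1P-Myc cells, 46 of them in 1 cell. These genes describe single cells on the high side more than the members.

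**Figure D2:**
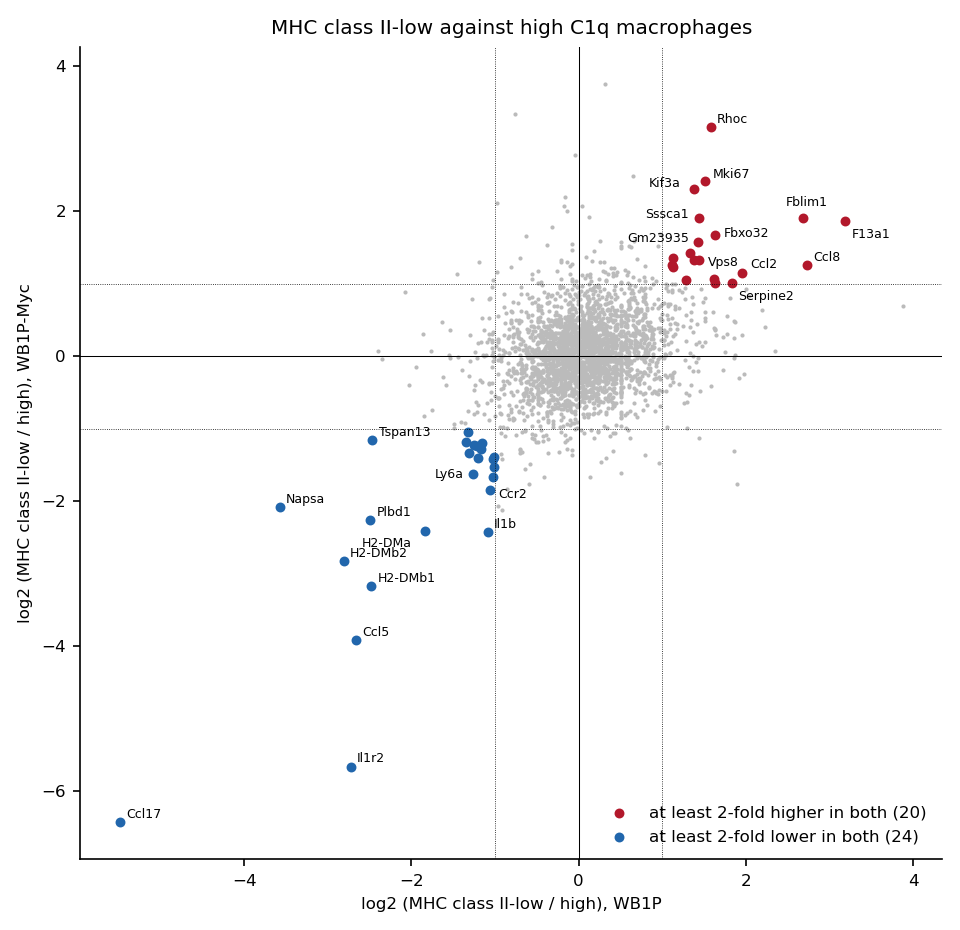
Each point is 1 of 2831 genes, placed by the log2 ratio of its level in MHC class II-low over high C1q macrophages in WB1P (x) and WB1P-Myc (y); ratios against 0 UMIs use a floor of 3 UMIs. Red marks the 20 genes at least 2-fold higher in both models and blue the 24 lower, with dotted lines at 2-fold; F13a1 and Ccl8 lie far right, and the H2-DM genes, Napsa and Plbd1 lie low in both.

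These levels were also followed over 4 bins of MHC class II, at 0, above 0 but below 5, 5 to below 20, and 20 or more per 1000 UMIs, with 53, 71, 62 and 100 WB1P cells and 169, 146, 65 and 49 WB1P-Myc cells. F13a1 stood at 965, 362, 111 and 33.4 CPM over the bins in WB1P and at 428, 303, 81.2 and 133 CPM in WB1P-Myc. Members with no MHC class II UMI were thus above members with a few, and they were shallower (median 1319 and 1817 UMIs in WB1P, 1606 and 2020.5 UMIs in WB1P-Myc). Ctsd followed the same order, at 2480, 1717, 947 and 649 CPM in WB1P and 5152, 4037, 2178 and 1197 CPM in WB1P-Myc. Il1b ran the other way, at 737, 1698, 2439 and 3231 CPM and 247, 386, 1329 and 2421 CPM. Maf stood at 1435, 536, 333 and 148 CPM in WB1P, whereas in WB1P-Myc it was nearly level at 667, 635, 502 and 585 CPM. C1qb, which helped to choose all 4 bins, stood at 2936, 2331, 2934 and 3131 CPM in WB1P and at 2237, 2427, 2747 and 3578 CPM in WB1P-Myc.

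**Figure D3:**
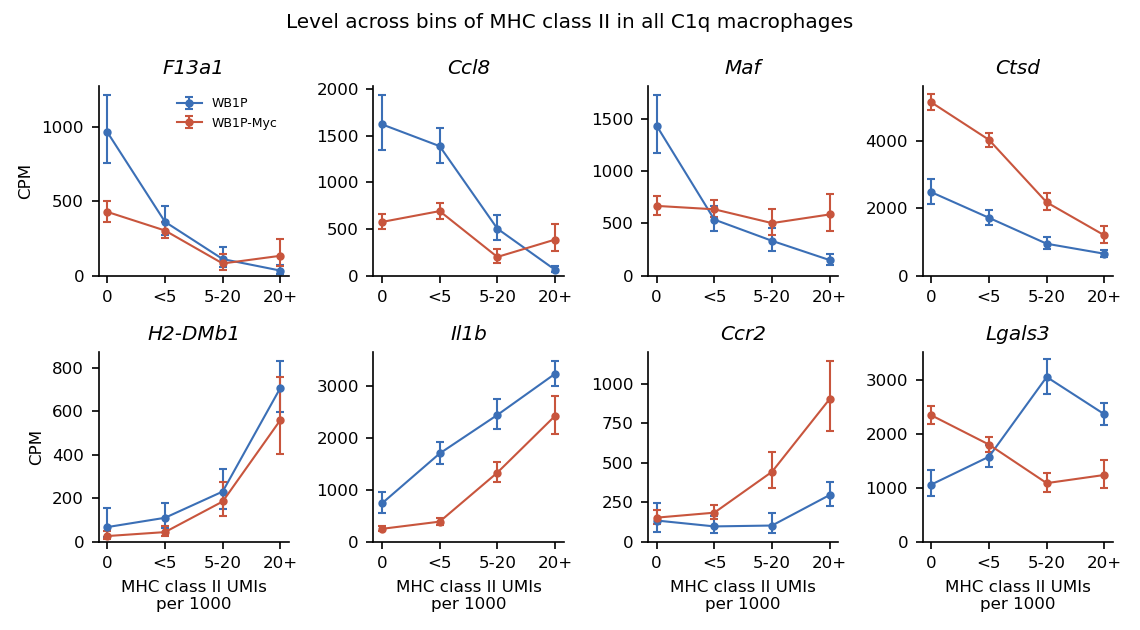
Pooled level in CPM (y) of 8 genes in C1q macrophages over 4 bins of MHC class II UMIs per 1000 (x), with exact Poisson 95% intervals, for WB1P (blue) and WB1P-Myc (red). F13a1, Ccl8 and Ctsd are lower in both models at 20 or more per 1000 than at 0, H2-DMb1, Il1b and Ccr2 are higher, and Lgals3 runs in opposite directions in the models.

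Compared with the 369 myeloid cells that had fewer than 2 C1q UMIs, members had higher levels of Apoe, Ms4a7, Sepp1, Vcam1 and Mertk and lower levels of S100a6 and Plac8. By the same 2-fold rule, 83 of 2454 genes (3.38%) were higher and 36 (1.47%) were lower in members. The median log2 ratio over all genes was -0.08 in each model. Apoe, the lipid-carrying apolipoprotein E, stood at 24094 against 2549 CPM in WB1P and at 26388 against 5317 CPM in WB1P-Myc (log2 ratios 3.24 and 2.31). Ms4a7, a membrane gene of macrophages, stood at 2575 against 132 CPM and 4318 against 1298 CPM, and Sepp1, which encodes selenoprotein P, at 1107 against 75.2 CPM and 1446 against 275 CPM. Vcam1, an adhesion molecule, stood at 231 against 9.41 CPM and 143 against 17.2 CPM.

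Of 12 genes for scavenging, Fc receptors and phagocytosis with enough UMIs, 4 were higher (Cx3cr1, Emr1, Fcgr3 and Mertk) and none lower. Mertk, a receptor for apoptotic cells, stood at 113 against 23.5 CPM and 151 against 62.0 CPM and the Fc receptor Fcgr3 at 898 against 376 CPM and 549 against 253 CPM. In the resident-type list 6 of 10 genes with enough UMIs were higher and none lower, and in the lipid-associated list 7 of 16 were higher and none lower. In the monocyte list 4 of 7 were lower and none higher. Among those, S100a6 stood at 410 against 3626 CPM and 516 against 1319 CPM, and Plac8 at 30.5 against 160 CPM and 42.2 against 208 CPM. The myeloid cells low in C1q also carried more epithelial UMIs, at 4275 CPM of that list in WB1P and 546 CPM in WB1P-Myc against 1089 and 365 CPM in members. Non-myeloid cells stood at 4965 and 1127 CPM, so in WB1P the myeloid cells low in C1q were close to them. The summed monocyte list stood at 1752 and 1600 CPM in members, at 5677 and 4171 CPM in myeloid cells low in C1q and at 5922 and 2595 CPM in non-myeloid cells. The part of tumor cell RNA in the values of myeloid cells low in C1q, and so in the higher and the lower genes, was not tested. Plac8, Vcan and Vcam1 left the call without 1 or more of the WB1P fractions. These cells were separated on C1q counts, and the members also on MHC class II, so the values are a description. The median MHC class II count was 11.8 per 1000 UMIs in WB1P and 0.44 in WB1P-Myc myeloid cells low in C1q, against 0.56 and 0 in members, so this comparison does not separate differences by C1q from those by MHC class II. Over the 4 bins of MHC class II in C1q macrophages, Apoe stood at 25406, 23463, 24384 and 18232 CPM in WB1P and at 27680, 25223, 25114 and 32681 CPM in WB1P-Myc. Ccl8, also higher in members here, stood at 1622, 1388, 503 and 62.0 CPM and at 575, 691, 199 and 386 CPM, so the genes were not alike in this.

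Between the models, members in WB1P-Myc had higher levels of Gpnmb, Cd36, Lpl and Ctsl and lower levels of Ccl12, Il1b and Arg1. A gene counted as different when it differed at least 2-fold and every WB1P-Myc fraction lay on the same side of WB1P fractions 2 to 4, with at least 50 UMIs in all. Of 3145 genes, 124 (3.94%) were higher and 54 (1.72%) were lower in WB1P-Myc, with a median log2 ratio of 0.06. Without the cells that carried other lineage markers 61 were higher and 50 lower, and with members of 800 to 3000 UMIs only 46 were higher and 37 lower. DESeq2 size factors gave 99 higher and 68 lower genes, and TMM factors 145 and 40. Model, mice and droplet session cannot be told apart in these values.

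Of 18 lipid-associated macrophage genes with enough UMIs, 8 were higher in WB1P-Myc members, 1 was lower, and the median log2 ratio was 0.79. The log2 ratio of the summed list was 0.33 in members (0.30 to 0.36), 0.18 in MHC class II-high cells (0.14 to 0.22) and 0.35 in myeloid cells low in C1q (0.30 to 0.41). Gpnmb, a lysosome-associated glycoprotein of lipid-laden macrophages, had 0 UMIs in WB1P members. In the WB1P-Myc fractions it stood at 230, 130, 669 and 155 CPM. Against the floor of 3 UMIs over the group, its level was at least 4.45 higher on the log2 scale, and 41 of its 209 UMIs came from 1 cell. MHC class II-high macrophages did not show this, with 27.5 and 28.5 CPM of Gpnmb in WB1P and WB1P-Myc, and non-myeloid cells stood at 3.10 and 9.41 CPM. Among myeloid cells low in C1q, a Gpnmb UMI was seen in 0 of 90 cells in WB1P and 7.17% of 279 in WB1P-Myc. The order was the same as in members (0% and 15.6%), so it was not particular to them.

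Cd36, a scavenger receptor for oxidized lipids and fatty acids, likewise had 0 UMIs in WB1P members. It stood at 353, 291, 170 and 136 CPM in the WB1P-Myc fractions, at least 4.22 higher on the log2 scale, and at 15.3 and 80.7 CPM in MHC class II-high cells of WB1P and WB1P-Myc. A Cd36 UMI was seen in 2.22% and 13.3% of myeloid cells low in C1q, and in 0% and 19.0% of members. Lpl, lipoprotein lipase, stood at 18.9, 112 and 73.8 CPM in WB1P and at 863, 501, 153 and 260 CPM in WB1P-Myc, a log2 ratio of 2.62 (1.92 to 3.42). MHC class II-high cells had 76.5 and 66.5 CPM of Lpl. Atp6v0d2, a subunit of the proton pump that acidifies lysosomes, stood at 17.4 CPM in WB1P and at 191, 139, 123 and 179 CPM in WB1P-Myc, a log2 ratio of 3.17 (1.77 to 5.07). In Gpnmb, Cd36, Lpl and Atp6v0d2 the fractions of the models were apart in members, while Lpl and Atp6v0d2 overlapped between models in MHC class II-high cells. Without the cells that carried other lineage markers, the log2 ratios of Lpl and Atp6v0d2 were 2.41 and 2.95, and both left the call.

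Lysosomal hydrolases followed. Ctsl, cathepsin L, stood at 340, 312 and 316 CPM in WB1P members and at 1619, 945, 1573 and 872 CPM in WB1P-Myc members (log2 ratio 1.96, 1.62 to 2.33), against 309 and 294 CPM in MHC class II-high cells. Lipa, the lysosomal acid lipase, stood at 218 CPM in WB1P and at 807, 698, 376 and 451 CPM in WB1P-Myc (1.45, 1.03 to 1.90), against 272 and 332 CPM in MHC class II-high cells. Fabp5, a fatty acid binding protein, stood at 697 and 1458 CPM in members (1.06) and at 658 and 565 CPM in MHC class II-high cells. Ctsl, Lipa and Fabp5 were thus at least 2-fold higher in the members and not in the MHC class II-high cells. They were also at least 2-fold higher in WB1P-Myc in myeloid cells low in C1q, with log2 ratios of 1.10 for Ctsl, 1.04 for Lipa and 1.19 for Fabp5. Ctsd was higher in both, with a log2 ratio of 1.22 (1.07 to 1.36) in members and 1.27 in MHC class II-high cells, and Ctsb, cathepsin B, stood at 3299 and 7074 CPM in members (1.10). The difference between these ratios was not tested.

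Other genes of the lipid-associated list were closer between models. Trem2, a lipid-sensing receptor, stood at 340 CPM in WB1P and 508 CPM in WB1P-Myc members, and Apoe at 24094 and 26388 CPM. Spp1, osteopontin, was the lower gene of the list, at 5804, 4336 and 4479 CPM in WB1P fractions 2 to 4 and at 1748, 2279, 1908 and 2757 CPM in WB1P-Myc (log2 ratio -1.12, -1.23 to -1.01). Non-myeloid cells differed in the same direction, at 8023 and 346 CPM of Spp1, and the part of free RNA in the member values was not tested.

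Lgals3 and Mmp12 differed in how they went with MHC class II. Lgals3, galectin 3, stood in WB1P at 1418, 1537 and 1254 CPM in members and at 3321, 2646 and 2072 CPM in MHC class II-high cells, and in WB1P-Myc at 2404, 2033, 2025 and 1743 CPM in members and at 1175, 1282, 865 and 1322 CPM in MHC class II-high cells. Members were thus lower without overlap in WB1P (log2 ratio -0.89) and higher without overlap in WB1P-Myc (0.85). Mmp12, macrophage elastase, stood at 658 CPM in WB1P and 674 CPM in WB1P-Myc members, and at 1111 and 66.5 CPM in MHC class II-high cells.

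**Figure D4:**
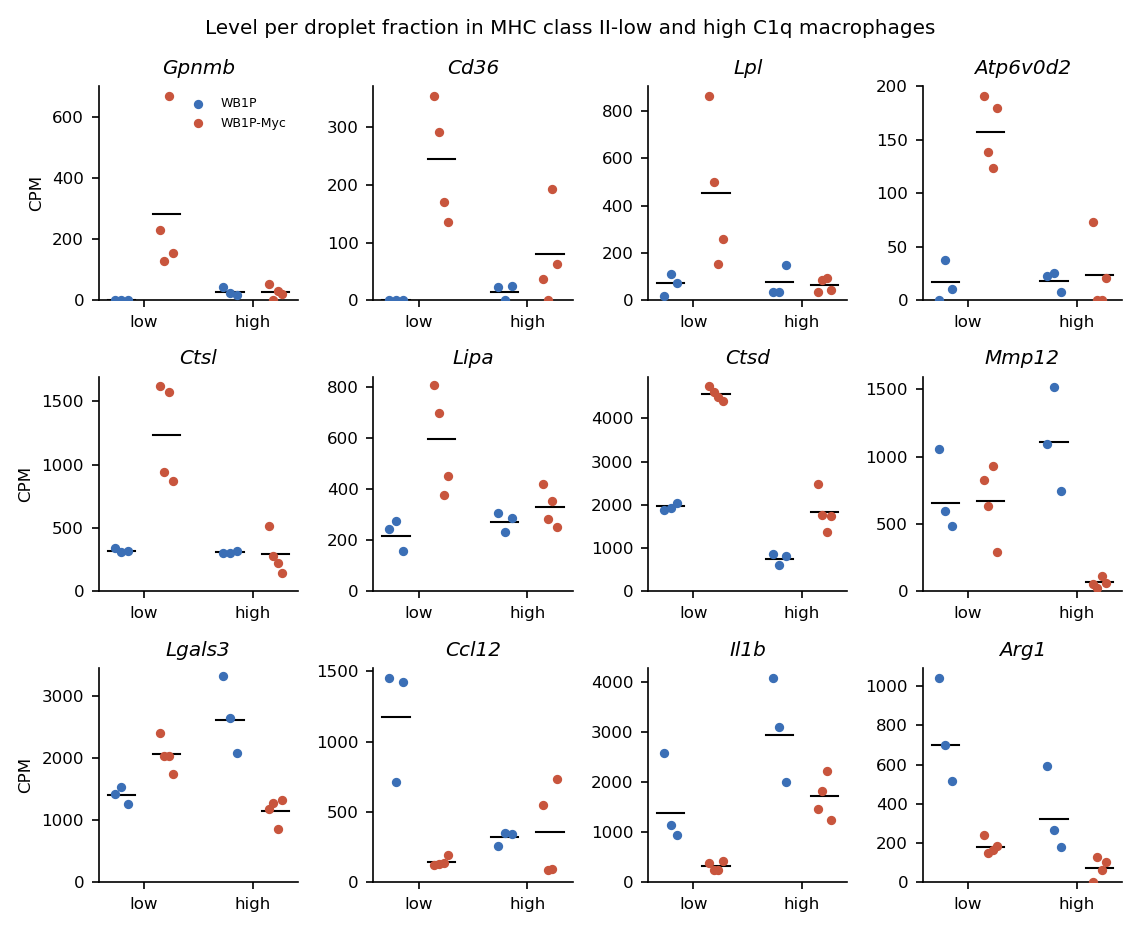
Level in CPM (y) of 12 genes in MHC class II-low and high C1q macrophages of WB1P (blue) and WB1P-Myc (red); points are droplet fractions with at least 20 cells of the class and lines are pooled levels. Gpnmb, Cd36, Lpl, Atp6v0d2, Ctsl and Lipa are higher in the WB1P-Myc low cells than in the WB1P low cells, and Ccl12, Il1b and Arg1 are lower.

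Ccl12, a monocyte chemokine, had the lowest ratio of the chemokine and cytokine list. It stood at 1456, 712 and 1423 CPM in WB1P and at 123, 130, 141 and 192 CPM in WB1P-Myc, without overlap, a log2 ratio of -3.03 (-3.36 to -2.70). MHC class II-high cells stood at 324 and 356 CPM of Ccl12, and a UMI was seen in 45.2% and 16.8% of members (32.3% and 8.25% when thinned to 600 UMIs a cell) and in 1.29% and 0.575% of non-myeloid cells. Il1b stood at 1386 CPM in WB1P and 320 CPM in WB1P-Myc members (-2.11, -2.36 to -1.87), without overlap. Of 16 chemokine and cytokine genes with enough UMIs, 3 were lower (Ccl12, Cxcl14 and Il1b) and none higher, with a median log2 ratio of -0.58.

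Arg1 stood at 1040, 700 and 516 CPM in WB1P members and at 241, 148, 164 and 185 CPM in WB1P-Myc members, a log2 ratio of -1.94 (-2.28 to -1.60). It was also lower in WB1P-Myc in MHC class II-high cells (321 and 71.2 CPM). Of 8 genes of alternative activation and suppression with enough UMIs, 4 were lower in WB1P-Myc, namely Arg1, the interleukin 4 receptor chain Il4ra, the protease Mmp19 and the amplifying receptor Trem1, with a median log2 ratio of -0.93. The log2 ratio of the summed list was -0.70 in members and -1.06 in MHC class II-high cells. It was -1.23 in myeloid cells low in C1q and -1.53 in non-myeloid cells, so the lower level was not particular to members. Among 16 hypoxia and glycolysis genes 2 were lower, Vegfa, the endothelial growth factor, at 240 and 89.9 CPM, and Ero1l, an oxidase of the endoplasmic reticulum, at 196 and 58.6 CPM. The log2 ratio of that summed list was -0.25 in members and -0.91 in MHC class II-high cells. It was -0.44 in myeloid cells low in C1q and 0.02 in non-myeloid cells. Gbp7, an interferon-inducible GTPase, stood at 248 and 65.4 CPM, and Bcl2a1a, a survival gene of the BCL2 family, at 231 and 66.8 CPM. H2-DMa was lower in WB1P-Myc members as well, at 161 and 65.4 CPM.

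Several of the largest ratios between models belonged to genes that are abundant in non-myeloid cells. Col2a1, a cartilage collagen, stood at 4.36 and 401 CPM in members, with 186 of its 294 WB1P-Myc UMIs in 1 cell, and at 48.9 and 1256 CPM in non-myeloid cells. H19, an imprinted noncoding RNA, stood at 8.72 and 226 CPM in members and at 208 and 1596 CPM in non-myeloid cells. Lcn2, lipocalin 2, stood at 741 and 10.9 CPM in members, with 121 of its 170 WB1P UMIs in 1 cell, and at 2653 and 41.3 CPM in non-myeloid cells. Hbegf, an epidermal growth factor family ligand, stood at 244 and 46.3 CPM in members and 906 and 226 CPM in non-myeloid cells, and left the call without WB1P fraction 4. Slpi, a protease inhibitor of epithelia, stood at 196 and 43.6 CPM in members and 1994 and 118 CPM in non-myeloid cells. Col2a1, Lcn2 and Hbegf left the call when cells with other lineage markers were left out. Of the 12 genes with the highest and the 12 with the lowest ratio, 3 and 8 stayed in it then. H19, Gpnmb and Cd36 were the 3 higher genes, and they, Ccl12, Il1b and Arg1 also stayed in it at 800 to 3000 UMIs and without any single fraction. Slpi stayed in it without those cells and without any single fraction, but not at 800 to 3000 UMIs. Genes abundant in non-myeloid cells were thus still in the call after those cells had been left out.

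**Figure D5:**
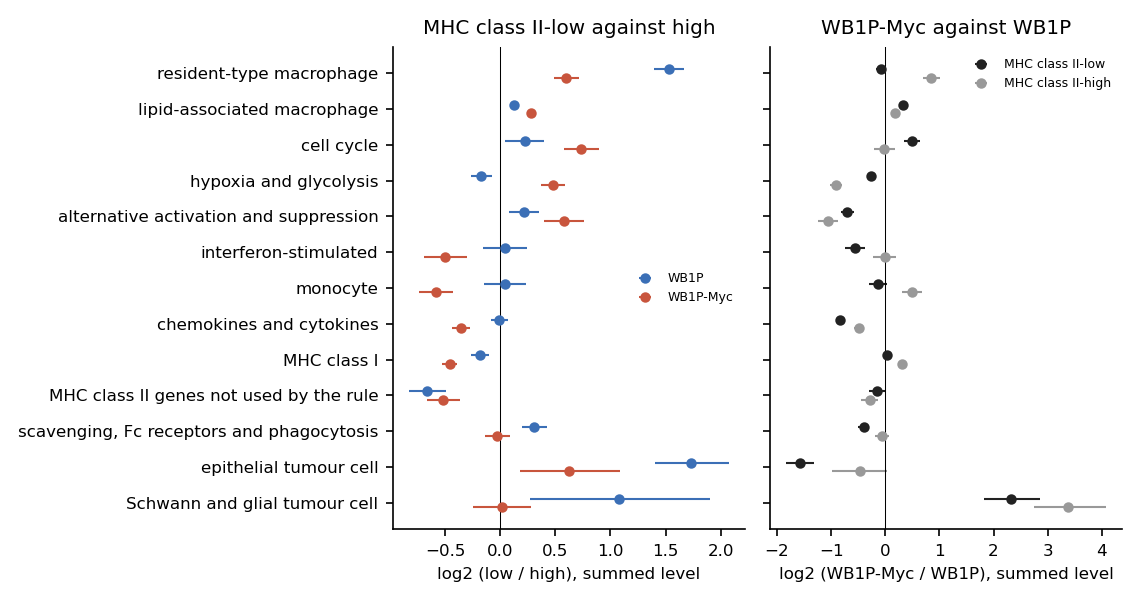
Log2 ratio (x) of the summed level of 13 gene lists (y), for MHC class II-low over high cells within each model (left) and for WB1P-Myc over WB1P within each class (right), with conditional binomial 95% intervals that cover counting error only. The resident-type list is higher in low cells in both models, the Schwann and glial list is higher in WB1P-Myc in both classes, and the epithelial list is lower in WB1P-Myc in low cells, while its interval in high cells includes 0 (-0.98 to 0.03).

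A UMI of the lipid genes was seen in a part of the WB1P-Myc members. The share expected if all members had the same level was not computed, so these shares do not show that members differed. With every cell thinned once at random to 600 UMIs, a UMI of Gpnmb, Cd36, Lpl or Atp6v0d2 was seen in 74 of 315 WB1P-Myc members (23.5%, 18.9 to 28.6%) and in 0 of 124 WB1P members, where a count of 0 (limit of 3 counts) allows up to 2.42% of cells with a UMI at that depth. The shares without thinning were 43.5% and 9.68%, so the genes were also present in WB1P members. Thinned MHC class II-high cells had 7.89% in WB1P-Myc and 5.56% in WB1P, and thinned non-myeloid cells had 4.96% and 7.41%. Myeloid cells with fewer than 2 C1q UMIs had 19.0% in WB1P-Myc and 7.78% in WB1P, so the genes were not confined to the members. These 4 genes were grouped after their values were seen.

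At full depth, the 137 WB1P-Myc members with a UMI of Gpnmb, Cd36, Lpl or Atp6v0d2 were deeper than the 178 without one (median 2146 and 1596.5 UMIs). Scaled to CPM, they carried more Ctsl (1883 and 511 CPM), Fabp5 (1976 and 873 CPM), Lgals3 (2708 and 1323 CPM) and Lipa (768 and 400 CPM). Hmox1, heme oxygenase 1, stood at 195 and 52.2 CPM. Cx3cr1, the fractalkine receptor, was lower in them, at 329 and 691 CPM, and Trem2 stood at 565 and 444 CPM. In WB1P, where 12 members had such a UMI and 112 had none, Lgals3 had the same order, at 2087 (1607 to 2665) and 1303 (1149 to 1471) CPM, and Fabp5 the opposite one, at 294 and 760 CPM. Lipa stood at 196 and 221 CPM and Ctsl at 522 and 287 CPM, both with overlapping intervals.

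Members with a UMI of Mrc1, F13a1 or Ccl8 were counted as a second set. After thinning they were 57 of 124 members in WB1P (46.0%) and 119 of 315 in WB1P-Myc (37.8%), against 24.1% and 30.7% of MHC class II-high cells, 12.2% and 29.7% of myeloid cells low in C1q and 3.76% and 2.55% of non-myeloid cells. In WB1P-Myc the intervals of members (32.4 to 43.4%), MHC class II-high cells (22.4 to 40.0%) and myeloid cells low in C1q (24.4 to 35.5%) overlap. These 3 genes were grouped after their values were seen, F13a1 and Ccl8 from the comparison with MHC class II-high cells, so that contrast repeats the choice. In WB1P-Myc 25 cells were in both sets. They were 33.8% of the lipid set, beside 37.8% of all members in the second set. They were 21.0% of the second set, beside 74 of all 315 members in the lipid set. The overlap was thus near that of unrelated sets, and no separate subsets are read from it. At full depth the WB1P-Myc members with one of these UMIs had more Maf (881 and 289 CPM), Stab1 (356 and 94.1 CPM) and Pf4 (1405 and 359 CPM) than those without, and less Mmp12 (412 and 1084 CPM). Ctsl was close in both (1226 and 1258 CPM), and Gpnmb stood at 172 and 460 CPM.

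Cell division genes were seen in a minority of the members. After thinning, a UMI of Mki67, Top2a, Cenpe or Birc5 was present in 15 WB1P members (12.1%, 6.93 to 19.2%) and 79 WB1P-Myc members (25.1%, 20.4 to 30.2%). The shares were 4.94% and 13.2% in MHC class II-high cells, 11.1% (5.46 to 19.5%) and 21.5% (16.8 to 26.8%) in myeloid cells low in C1q, with intervals that overlap those of the members, and 17.2% and 33.2% in non-myeloid cells, in which free RNA of the same genes would arise, so no share of dividing members is read from them. The summed cell cycle list stood at 2070 and 2917 CPM in members and at 1775 and 1752 CPM in MHC class II-high cells of WB1P and WB1P-Myc.

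The MiSeq run was shallower and held 73 members and 58 MHC class II-high cells, 1 of them with the barcode of a HiSeq member. Of the 12 named genes higher in WB1P-Myc members, 8 had a value there and all 8 were higher. Of the 12 lower, 7 had a value and all 7 were lower. Of the 12 genes named as higher in members than in MHC class II-high cells, 4 of 7 with a value were higher in WB1P and 5 of 6 in WB1P-Myc, and of the 12 lower, 10 of 11 and 5 of 7 were lower. The 7 values on the other side of 0 included Ccl8 in WB1P (-0.11, -0.77 to 0.54) and H2-DMb1 in WB1P-Myc (0.40, -1.99 to 3.70, from 7 and 2 UMIs), and each of the 7 intervals included 0. Several values on the same side also had intervals that included 0. Among them were F13a1 in WB1P (1.29, -0.09 to 2.77) and, between models, Slc37a2 (0.94, -0.82 to 3.04) and Il1b (-0.63, -1.46 to 0.19). Others, such as Ccl12 between models (-2.01, -2.96 to -1.13), did not include 0. The tables of both runs are labelled with the same models and sample numbers, but 4 of the 439 member barcodes were listed in a MiSeq table, so by barcode the runs hold almost entirely different cells. No label names a second tumor or suspension of either model, and the MiSeq run is not counted as a biological replicate.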

How the data were processed

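Per the labels and the study's methods, Drop-seq libraries of 4 droplet fractions per model were sequenced on a MiSeq and a HiSeq2500. The authors made the deposited tables of raw UMI counts per gene symbol and barcode with dropseq-tools, unnormalized. The submitters' processing notes name mm10 and Scanpy, and the aligner was not given in the sources used here. HiSeq counts were used here, and the merged table was not.

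Members and gene lists were chosen with earlier results of these data known. UMIs were pooled over the cells of a class and divided by the class total (CPM). Ratios carry conditional binomial intervals, shares exact Clopper-Pearson and levels exact Poisson intervals, at a level of 0.95. The floor was 3 UMIs over the group. With 1 sample per model no test was made. Named genes were the 12 highest and 12 lowest of each main call, 8 and 8 against myeloid cells low in C1q, and genes of the lists; others were chosen after their values were seen. Cells were thinned once at random (seed 1). Doublets were limited by the cap of 4000 genes, and no caller was run. Promoters came from RefSeq. Alternatives used TMM (edgeR 4.0.16) and DESeq2 1.42.0 size factors, other limits, and fractions left out. Python 3.11.15, numpy 2.4.6, pandas 2.3.3 and scipy 1.17.1 were used. The ratio code was tested on simulated data. Some items withheld for evaluation are not reported here.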

Additional observations from a re-analysis of the deposited data

Results flagged for a closer look

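In WB1P-Myc members, 1 of the 4 droplet fractions stood apart from the others for 5 of 58 quantities examined. The value was high in each case: Col2a1 in fraction 1 (1289 CPM, median of the others 117 CPM), F13a1 in fraction 3 (575 CPM against 308 CPM), Il1r2 in fraction 4 (12.4 CPM against 0, from 2 UMIs), Lcn2 in fraction 4 (37.1 CPM against 5.60 CPM), and the summed MHC class I genes in fraction 4 (10330 CPM against 8560 CPM). Col2a1 rested on 1 cell with 186 of 294 UMIs.

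For 4 of 116 genes examined, members were below MHC class II-high macrophages in every WB1P fraction and above them in every WB1P-Myc fraction. The log2 ratio in WB1P-Myc less that in WB1P was 4.10 for Mmp12, 1.74 for Lgals3, 1.42 for Cxcl14 and 1.05 for Ccl9. For Mmp12 the ratio was -0.76 in WB1P and 3.34 in WB1P-Myc. For Cxcl14 it was -0.26 (-0.96 to 0.42) and 1.17 (-0.06 to 2.69), and both intervals include 0. For Ccl9 it was -0.72 (-1.27 to -0.19) and 0.32 (-0.10 to 0.77), and the WB1P-Myc interval includes 0. These differences were not tested. Genes beyond these 116 were not examined in this way. The number of the 116 that would show such opposite fractions by chance was not computed. The count of 4 is thus not read as more than chance would give.

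Outside the cells described, 25 barcodes with over 4000 genes met every other condition for MHC class II-low C1q macrophages. Whether they are single cells was not tested.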

How the results depend on the processing

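No paired analysis was possible because the results come from no test. MHC class II-low and high cells of the same fraction were compared within it, whereas fractions of the models share only their numbers. The share of C1q macrophages low in MHC class II was 37.8% in WB1P and 69.2% in WB1P-Myc at a limit of 3 per 1000 UMIs, 52.1% and 82.1% at a limit of 10, and 49.0% and 77.9% without Cd74 in the sum, an alternative chosen after seeing the data. The genes higher in MHC class II-low than high cells (20) numbered 3 in the MiSeq run, 32 at a limit of 10, 13 without cells carrying other lineage markers, 10 after thinning, 6 with a minimum of 100 UMIs and 216 with a minimum of 1 UMI. The lower genes (24) numbered 4 in the MiSeq run, 14 without those cells, 10 at 800 to 3000 UMIs, 5 after thinning, and 4 and 110 with those minimums. The genes higher in WB1P-Myc members (124) numbered 61 without those cells, 46 at 800 to 3000 UMIs, 22 after thinning, and 55 and 319 with those minimums, and the lower genes (54) numbered 24 after thinning, 30 and 236. Thinning and higher minimums test fewer genes; other causes were not tested. The MiSeq run had no fraction with 20 members in each model and gave no counts between models.

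With 1 fraction left out, the 2 shares ranged from 41.5% to 44.7% and from 72.1% to 74.5%. The counts against MHC class II-high cells ranged from 9 to 32 higher and from 16 to 24 lower genes. They were 13 higher without WB1P fraction 2 or 3, 9 without fraction 4 and 32 without WB1P-Myc fraction 1. Between models they ranged from 85 to 183 higher and from 49 to 106 lower genes, with 106 lower without WB1P fraction 2. DESeq2 size factors took the split of called genes from 45.5% to 31.3% higher against MHC class II-high cells and from 69.7% to 59.3% between models, and TMM factors took the latter to 78.4%. TMM factors also shifted every WB1P ratio against MHC class II-high cells by -0.14 on the log2 scale. The named genes gave 64 results, since some were named in more than 1 comparison. Taken as the mean of the model log2 ratios where both models enter, no direction changed in 1563 recalculations and 219 values moved. A recalculation without a value, or for the mean without a value in both models, was left out of these. Within a single model 7 named genes changed sign in the MiSeq run. Among them Serpine2 (-1.73 in WB1P) and Gm23935 (-2.14 in WB1P-Myc) had no value in the other model, so they could not count as a changed direction. Of 750 values of gene lists 3 reversed, the MHC class II genes not used in the choice (0.20) and the cell cycle list (-1.35) in WB1P-Myc against MHC class II-high cells in the MiSeq run, and the interferon list between models at 800 to 3000 UMIs (0.10). A reversal was counted only for lists with a main log2 ratio of at least 0.5 in size. A change of sign in lists with smaller ratios was not counted.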
